A study of Danio rerio with 10 samples.

Results

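The subject is a set of 110 transcripts that were more abundant in the pigment cells of white fin regions than in those of yellow fin regions of zebrafish. A transcript entered the set when its lowest abundance over the 5 libraries from white regions was at least 2 times its highest over the 5 libraries from yellow regions. Abundance was in CPM, the estimated counts of a transcript scaled to a library total of 1000000 counts. The mean also had to be at least 10 CPM in the white regions and below 1000 CPM in both. Of 57775 listed transcripts, 110 met this rule, and all 110 also passed the filter on low counts, as did 28667 transcripts in all, which are called tested here. The CPM ranges lay apart with the white regions higher for 3.35% of the tested transcripts, and for every member by the rule itself. The difference between the groups therefore chose the members, and the levels, ratios and ranges given here describe them without testing them.

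The cells came from the anal fins of zebrafish of genotype Tg(aox5:palmEGFP), which express a membrane-bound green fluorescent protein under the promoter of aox5, an aldehyde oxidase gene used as a marker of the xanthophore lineage. Every library of both groups carries this reporter, and no animals without it or with another treatment were compared. The fish had a standard length of about 14 mm, and tissue from 20 fish was pooled for each sample. Fluorescent cells were sorted from yellow regions (xanthophores in the labels, 5 libraries) and from white regions (xantho-leucophores, 5 libraries). The sort takes any cell in which the reporter is on, so the groups differ by fin region and not by a second marker.

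Xanthophores are neural crest-derived pigment cells that owe their yellow to orange colour to pteridines and carotenoids. Leucophores are pigment cells that look white because purine crystals in them scatter light. Xantho-leucophores of zebrafish fins are named for combining features of both, with reflective crystals together with yellow pigment. The comparison asks which transcripts go with the cells of the white ornament. Of the 57775 transcript identifiers, 0 matched an entry of the gene tables used here. No gene, pathway or marker can therefore be named for a member, the labelled cell types were not checked against marker genes, and members are described by identifier, length and level. In bulk samples, fewer cells of a type and less RNA per cell cannot be told apart.

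The 5 xanthophore libraries held 42104732 to 62617916 estimated counts, and the 5 xantho-leucophore libraries held 7735704 to 59106662. The lowest total was that of xantho-leucophore replicate 2, and the other 4 libraries of its group held 49044916 counts or more. Fragment lengths, taken from the difference between transcript length and effective length, were 184.92 to 204.31 bases in the yellow-region libraries and 210.92 to 235.05 bases in the white-region libraries. The ranges did not overlap, so fragment length and cell type cannot be told apart by comparing libraries. Xanthophore replicate 5 also stood apart, and its 42104732 counts were the lowest total of the xanthophore libraries. Among 17210 tested transcripts with a mean of 1 to 20 CPM in xanthophores, 13.2% had fewer than 0.5 estimated counts in it. In the other xanthophore libraries the share was 2.43% to 3.93%. The part of depth in this was not tested.

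The set as a whole made up a small share of the RNA in both cell types. Its summed level was 4314, 4586, 4202, 4114 and 3852 CPM in xanthophore replicates 1 to 5. It was 16480, 15020, 14638, 16079 and 15869 CPM in xantho-leucophore replicates 1 to 5. The lowest xantho-leucophore library thus lay far above the highest xanthophore library, a separation that the rule fixed for every member and so for the sum. Each group was tight. The means were 15617 ± 764 CPM and 4214 ± 269 CPM (SD, n = 5 each), or 1.56% and 0.421% of all counts. Their ratio was 3.71 ± 0.298. That SD carries over the spread of single libraries in both groups and is not an error of the ratio of means. On the TPM scale, which divides by effective length before scaling to the same total, the ratio was 3.76.

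**Figure D1:**
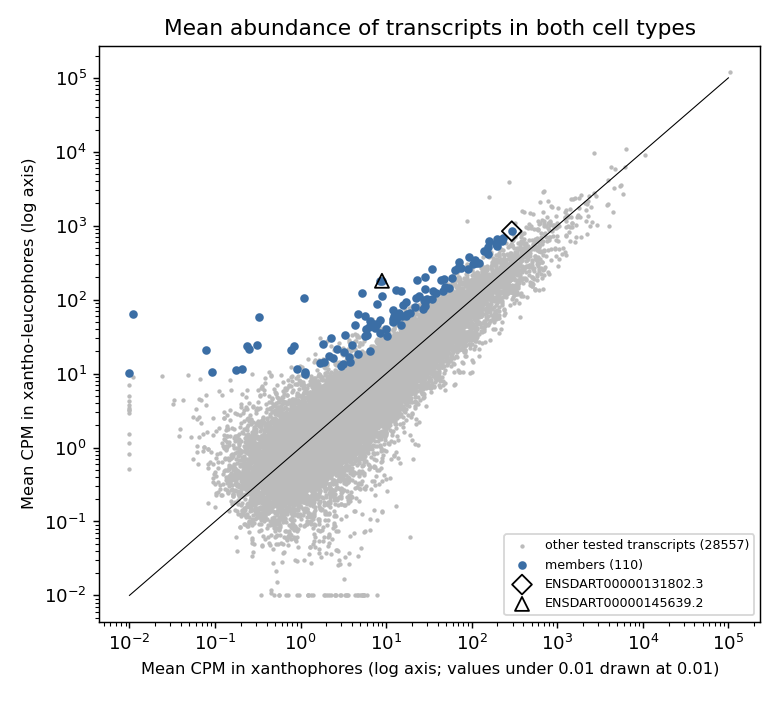
Mean CPM of each tested transcript in xanthophores (horizontal) and xantho-leucophores (vertical), both on log axes, with the line of equal abundance. The 110 members (blue) lie above the line by construction, from 10.01 CPM to 844 CPM in xantho-leucophores, and a few extend to the left where xanthophores had almost no counts.

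The 10 members with the most counts supplied 38.9% of the summed level in xantho-leucophores and 47.1% in xanthophores. Without these 10 the ratio of summed levels was 4.28. Mean levels of single members in xantho-leucophores ran from 10.01 to 844 CPM with a median of 64.6 CPM. Their means in xanthophores had a median of 12.2 CPM and reached 294 CPM. Most members were therefore present in both cell types at different levels. The ratio of group means had a median of 4.61 and an interquartile range of 3.47 to 8.94. The ratio on which the rule turns, lowest xantho-leucophore over highest xanthophore library, had a median of 2.55.

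Close to the threshold, the members with the smallest such ratios were at 2.008, 2.014 and 2.03, and the nearest transcripts outside were at 1.997, 1.990 and 1.990. The lowest mean in the set was 10.01 CPM, and the nearest transcript under the limit was at 9.92 CPM. A further 13 transcripts met the ratio but exceeded the upper limit of 1000 CPM. They ranged from 1086 to 9495 CPM in xantho-leucophores and are not members. Between ratios of 2 and 3 lay 71 members, between 3 and 5 lay 21, and 18 had a ratio of 5 or more. The same rule turned round, with xanthophores as the higher group, gave 146 transcripts.

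The most counted member was ENSDART00000131802.3, a transcript of 3053 bases. In xanthophore replicates 1 to 5 its level was 289, 319, 287, 246 and 328 CPM. In xantho-leucophore replicates 1 to 5 it was 889, 842, 778, 911 and 800 CPM. The groups were compact and far apart, and the lowest white-region value was 2.37 times the highest yellow-region value. The means were 294 ± 32.2 CPM and 844 ± 56.6 CPM (SD, n = 5 each). The fitted log2 fold change was 1.56 (SE 0.09). Per length it was not the leading member: at 153 ± 16.5 TPM in xanthophores and 420 ± 27.1 TPM in xantho-leucophores (SD, n = 5 each), it ranked 11 of 110 by mean TPM.

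ENSDART00000145639.2, of 1104 bases, had the widest separation among members with counts in every xanthophore library. Its level was 8.42, 6.75, 13.8, 13.4 and 2.30 CPM in xanthophore replicates 1 to 5. It was 182, 201, 131, 216 and 171 CPM in xantho-leucophore replicates 1 to 5. Replicate 5 was the lowest of the xanthophores and replicate 3 the lowest of the xantho-leucophores, and that lowest value was still 9.48 times the highest xanthophore value. The means were 8.93 ± 4.81 CPM and 180 ± 32.5 CPM (SD, n = 5 each), with a fitted log2 fold change of 4.37 (SE 0.43). On the length-corrected scale it was at 14.6 ± 8.01 TPM and 287 ± 50.1 TPM (SD, n = 5 each), rank 16 of the members. Its lowest level rested on 97 counts, in xanthophore replicate 5.

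**Figure D2:**
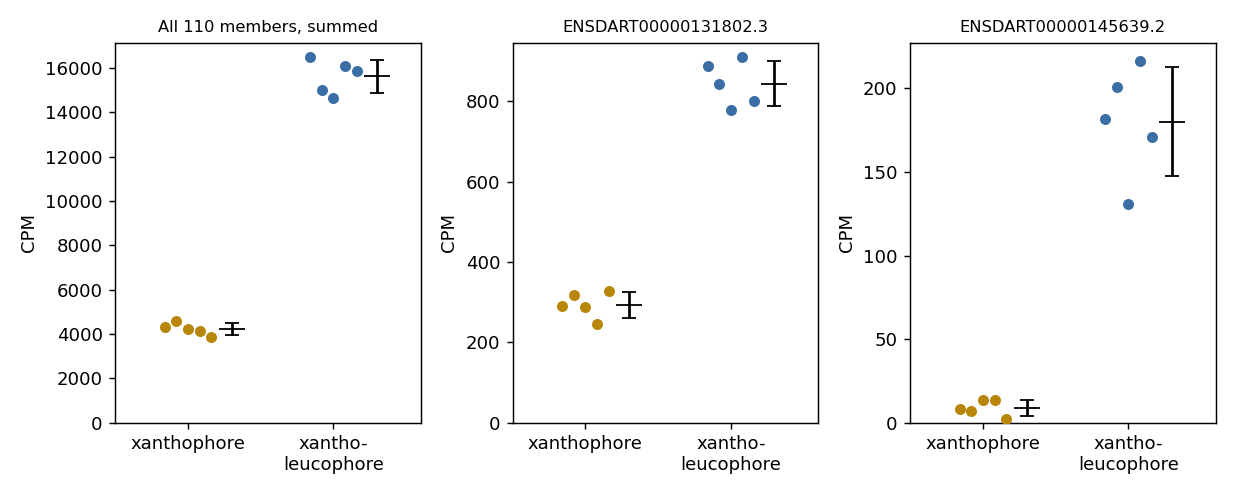
CPM per library (points) for the 110 members summed and for the 2 named transcripts, with the mean and SD of the 5 libraries of each group beside the points. In each panel the xantho-leucophore libraries lie above all xanthophore libraries, as the rule requires. The summed level lies between 14638 and 16480 CPM against 3852 to 4586 CPM.

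Sorting the members by their level in xanthophores showed a graded set and not a set of transcripts that were absent from the yellow cells. In 16 members the highest xanthophore library was at 100 CPM or more. These had a median ratio of means of 2.95, between 2.56 and 4.05. They supplied 8124 of the 15617 CPM of the summed mean in xantho-leucophores and 2680 of the 4214 CPM in xanthophores. In 56 members the highest xanthophore library lay between 10 and 100 CPM, with a median ratio of means of 4.20. In 30 members it lay between 1 and 10 CPM, with a median ratio of 8.19. The order of these ratios follows in part from the rule, since a member with little in xanthophores could reach 10 CPM in xantho-leucophores only with a large ratio.

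The remaining 8 members stayed under 1 CPM in every xanthophore library. Their mean levels summed to 1.05 CPM in the yellow-region libraries and to 173 CPM in the white-region libraries. Single means in xantho-leucophores ran from 10.25 to 63.5 CPM. A transcript of 1195 bases in this class was at 19.5, 19.0, 25.2, 18.0 and 23.0 CPM in xantho-leucophore replicates 1 to 5. It had 0.26 CPM in xanthophore replicate 2, 0.13 CPM in replicate 4 and 0 in replicates 1, 3 and 5. That transcript was even across the white-region libraries, but most of the class was not. The median coefficient of variation over the xantho-leucophore libraries (CV, SD as a percentage of the mean) was 48.5% in these 8, against 18.4% over all 110. Only 1 member of the set had fewer than 0.5 counts in each of the 5 xanthophore libraries. That member, of 2133 bases, spread from 0.357 CPM in xantho-leucophore replicate 1 to 24.5 CPM in replicate 2, so no level is typical of it.

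The members varied less among the xantho-leucophore libraries than among the xanthophore libraries. Their median CV was 18.4% in xantho-leucophores and 30.6% in xanthophores. Over the 11132 tested transcripts in the same range of abundance, the medians were 34.2% and 27.5%. The rule favours even levels in xantho-leucophores, because a single low library there removes a transcript, so this contrast with other transcripts is partly built in. Levels also differed. The median of mean CPM was 64.6 in xantho-leucophores and 12.2 in xanthophores for the members, against 27.35 and 27.44 for the 11132. The part of level in the CVs was not tested. The CV in xantho-leucophores was under 10% for 16 members and over 40% for 12. The 12 variable members all had means of 25.1 CPM or less, and single values between 0.357 and 42.8 CPM. Xantho-leucophore replicate 2, the library with 7735704 counts, was the lowest of its group for 7 of these 12 and the highest for 3.

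**Figure D3:**
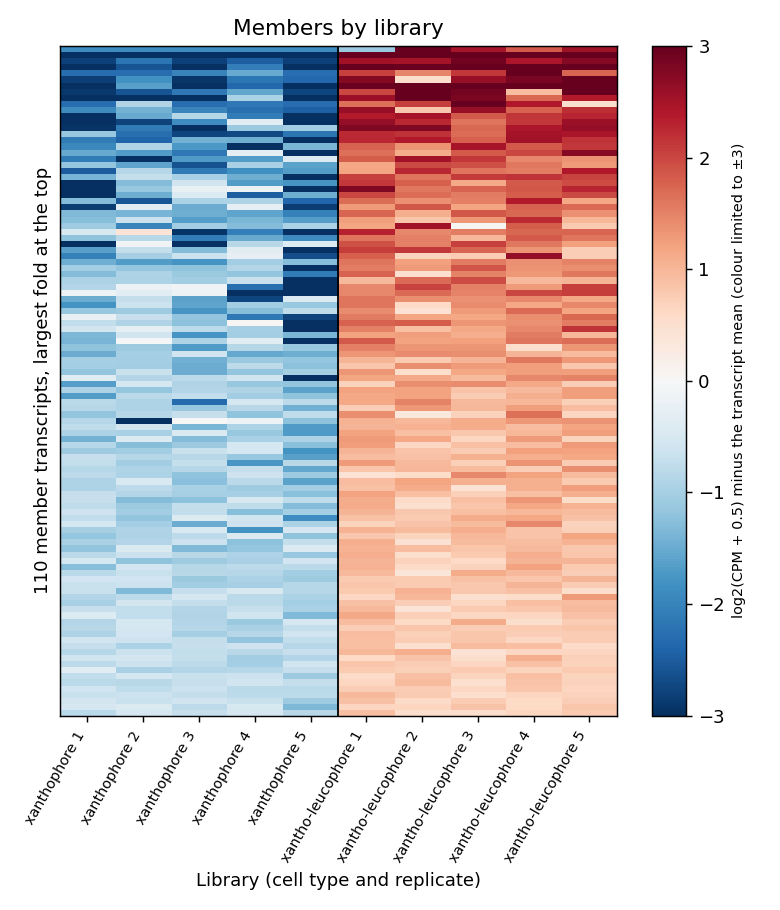
Level of the 110 members (rows, largest ratio of means at the top) in the 10 libraries (columns) as log2(CPM + 0.5) minus the transcript's own mean, with colour limited to ±3. Within each row every white-region library lies above every yellow-region library, as the rule requires. The darkest blue cells are those furthest below the transcript's own mean, and they need not have fewer than 0.5 counts.

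Libraries differed in how often they marked the edge of a group. Xanthophore replicate 5 was the lowest xanthophore library for 42 of 110 members and the highest for 7. Where libraries tied at 0, only the one with the smallest replicate number was counted as lowest. The 42 therefore leaves out members in which replicate 5 tied at 0 with another library. Replicate 2 was the highest for 38 and replicate 4 for 30. The median over members of a library's level relative to its group median was 0.879 in xanthophore replicate 5 and between 1 and 1.06 in the other 4. Fewer than 0.5 counts were recorded for 20 members in replicate 5, against 2 to 13 in the other xanthophore libraries. Among the 55 members with a mean of 1 to 20 CPM in xanthophores, 10 (18.2%) fell under 0.5 counts in replicate 5, beside the 13.2% of all tested transcripts of that abundance.

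In xantho-leucophores the lowest library was replicate 2 for 39 members and replicate 3 for 32, and replicates 1, 4 and 5 were lowest for 11, 12 and 16. The highest library was spread more evenly, from 15 members for replicate 3 to 26 for replicate 1. The median level relative to the group median lay between 0.975 and 1.001 in all 5 libraries. No member had fewer than 20 counts in any xantho-leucophore library.

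A library that takes no part in the choice of members gives a value that the rule did not use. The values of the other group, against which it is set, did take part. When xantho-leucophore replicate 1 was left out of the rule, 126 transcripts were chosen from the other 9 libraries. In the left-out library, 124 of them (98.4%) were above every xanthophore library, against 28.4% of the 11083 tested transcripts of the same abundance range. Over the 10 libraries left out in turn, from 92.9% to 99.2% of the chosen transcripts lay beyond the other group in the library left out. For the tested transcripts of that abundance range, the share ran from 15.9% to 30.5%. Those transcripts were taken by abundance alone, while the chosen ones already had the 2-fold margin in the other 9 libraries. A higher share among the chosen was thus largely built in, and these shares describe the set without testing it.

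The stricter margin of 2-fold was met less uniformly. It held in the left-out library for 84.0% to 92.0% of the chosen transcripts in 9 of the 10 cases. A transcript that keeps this margin in the left-out library meets the ratio of the full rule. For each xanthophore library left out, 110 transcripts kept it, the size of the set itself. These shares therefore mostly restate how many transcripts were chosen, and test nothing. The exception was xantho-leucophore replicate 2, without which 154 transcripts were chosen. Of these, 108 had the 2-fold margin in replicate 2 and 143 (92.9%) lay above every xanthophore library in it. The part of its depth and fragment length in this was not tested.

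**Figure D4:**
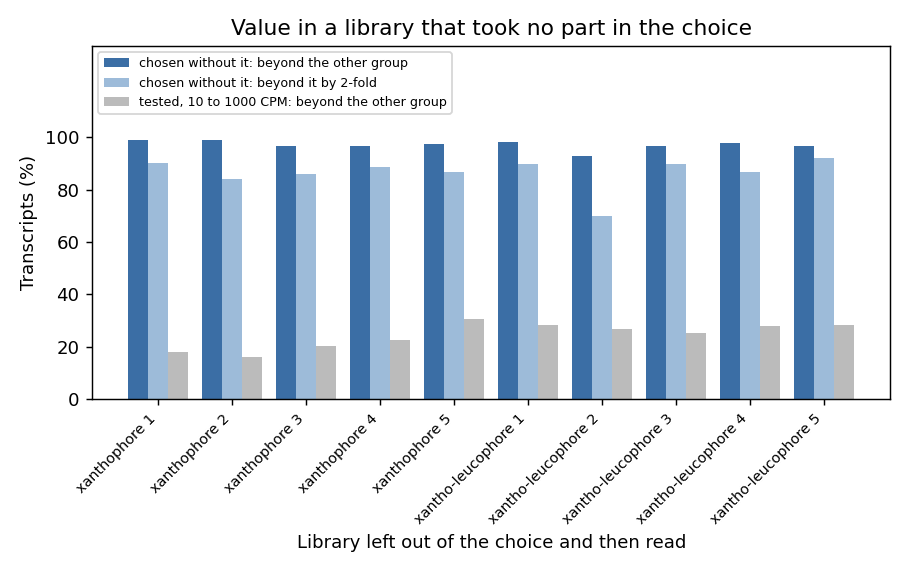
For each library left out of the rule in turn, the percentage of the transcripts chosen from the other 9 libraries whose value in the left-out library lay beyond every library of the other group (dark blue) or beyond it by 2-fold (light blue), and the percentage of tested transcripts with 10 to 1000 CPM lying beyond it (grey). The dark bars run from 92.9% to 99.2% and the grey from 15.9% to 30.5%, and the light bar is lowest, at 108 of 154 transcripts, for xantho-leucophore replicate 2. The grey transcripts were not chosen for a difference between the groups, so the gap between dark and grey is largely built in. Transcripts counted in the light bars meet the ratio of the full rule, so those bars test nothing.

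A quasi-likelihood test in edgeR was fitted to all tested transcripts, with p-values adjusted over them by the Benjamini-Hochberg method. At an adjusted p under 0.05, 95 of the 110 members were called higher, where 2.47% of the tested transcripts were called higher and 5.03% were called in either direction. Since the rule used the same contrast, nothing is read from that count. The fitted log2 fold change of members ran from 1.40 to 12.25 with a median of 2.25, and the median over all tested transcripts was -0.04. The largest value belongs to a transcript with almost no xanthophore counts and depends on the prior count of the fit. With each library's fragment length as a covariate, 63 members were called higher, where 310 of the 28667 tested transcripts (1.08%) were called higher. The median log2 fold change in that fit was 2.38 over the members and 0.17 over all tested transcripts. Fragment lengths of the groups did not overlap, so this fit cannot tell fragment length from cell type, and nothing is read from it.

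The 15 members that were not called tended to vary more within groups. Their CV had a median of 98.5% among xanthophore libraries, against 25.1% for the 95 called, and 25.3% against 16.8% among xantho-leucophore libraries. The test weighs this variation, so the difference follows in part from the call itself. The 40 members with a CV over 50% among xanthophore libraries included all 15, and the rest of the 40 were called. The fitted log2 fold changes of the 15, from 2.12 to 6.27, were not small. All 15 had means between 10.4 and 47.5 CPM in xantho-leucophores. In xanthophore replicate 5, 12 of the 15 had fewer than 0.5 counts, as did 8 of the 95 called members. Without that library, 100 members were called, of which 94 were among the 95, and 6 were gained. In that fit 664 of 30225 tested transcripts (2.2%) were called higher. An example is a transcript of 2490 bases, at 7.52, 12.6, 13.1, 2.59 and 0 CPM in xanthophore replicates 1 to 5. It was at 39.4, 59.6, 41.7, 35.6 and 61.4 CPM in xantho-leucophore replicates 1 to 5, so the groups lay apart although 1 of the yellow-region libraries had no count.

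Length was not part of the rule. Members had a median length of 1504 bases, with an interquartile range of 1057 to 2522 and extremes of 388 and 7816 bases. The median was 1987 bases over all tested transcripts and 2424 bases over the 11132 of the same abundance range. Transcripts shorter than 1000 bases made up 18.2% of the members, 9.89% of those 11132 and 21.2% of all tested. The 146 transcripts of the reversed rule had a median of 1770 bases, and 20.5% were shorter than 1000 bases. The median member was thus shorter than the median transcript of its abundance range. Levels within that range differed, with a median of mean CPM in xantho-leucophores of 64.6 for the members and 27.35 for the 11132. The part of level in the lengths was not tested. The median of the reversed rule was also below 2424 bases. That range was set by the level in xantho-leucophores and the reversed rule by the level in xanthophores, so the abundances are unlike. No test was made of this, since members share libraries and are not replicates. Fragment length differs between the groups and enters the effective length of short transcripts most, and its part in this was not tested.

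**Figure D5:**
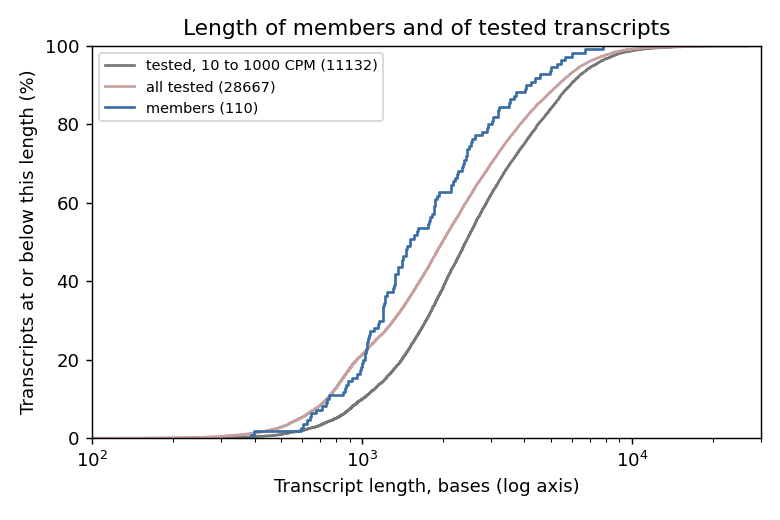
Cumulative percentage of transcripts by length in bases (log axis) for the 110 members, for all 28667 tested transcripts and for the 11132 tested transcripts with 10 to 1000 CPM in xantho-leucophores. The curve of the members lies to the left of that of the 11132 in its abundance range, with medians of 1504 and 2424 bases.

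Correction for effective length did not remove the separation of any member. In TPM the group ranges lay apart for all 110 members, as they did in this direction for 3.1% of all tested transcripts, and 102 kept a ratio of at least 2 between the lowest xantho-leucophore and the highest xanthophore library. The smallest ratio in TPM was 1.85. TPM comes from the same estimated counts by which the members were chosen, so these values describe the members without testing them. The orders of members by counts and by level per length differed but overlapped. The members ranked 2 and 3 by mean TPM ranked 5 and 4 by mean CPM. Mean TPM in xantho-leucophores ran from 3.35 to 780 with a median of 73.7, and the highest belonged to a transcript of 1047 bases, which ranked 10 by CPM.

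The estimated counts also give a partial sign of whether a member's reads were shared with other transcripts. A transcript whose reads match nothing else has whole-number counts, but whole counts alone do not show that its reads match nothing else. Counts were whole, within 0.001, in all 10 libraries for 33 of the 110 members. The same held for 4072 of the 28667 tested transcripts (14.2%), for 18.9% of the 11132 of the same abundance range and for 38 of the 146 of the reversed rule. These 33 had a median ratio of means of 4.30, against 4.82 in the 77 whose counts were not whole somewhere. Their summed level alone was 3.68 times higher in xantho-leucophores, beside 3.71 for the whole set. For the other 77, ENSDART00000131802.3 and ENSDART00000145639.2 included, the level depends in part on how reads were divided between similar transcripts. For no member is a change between transcripts of a gene separated from a change of the gene. No pair of members had levels within 0.05 on the log2 scale in every library.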

How the data were processed

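RNA of sorted cells was sequenced in 10 libraries, for which the labels' protocols name the SMART-Seq mRNA LP kit. The submitters' processing notes name bcl2fastq, fastp, kallisto and the build GRCz11, without versions; the annotation release is not given in the sources used here. Per the file headers, the authors deposited estimated counts, which are unscaled and can be fractional. They also deposited TPM, which corrects for effective length and sums to 1000000 in each library. Lengths and effective lengths are in bases, per the file headers.

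CPM was computed against each library's total. For the test, estimated counts were rounded and fitted in edgeR 4.0.16 (R 4.3.3) with filterByExpr and TMM factors. The model was a robust quasi-likelihood model with group as its term. A check on simulated counts gave every transcript the same dispersion (spread beyond counting noise). It therefore does not cover members that vary strongly among libraries. A standard error is the log2 fold change over the square root of F. Fragment length is the median of length minus effective length over transcripts above 5000 bases. Reads carry no molecular identifiers here. Nothing says whether the pools of 20 fish came from separate clutches, so the spread is that between these samples.

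The members, the lists and the alternatives were chosen with earlier results of these data known. Gene lists and sums per gene were planned and were not used, because identifiers matched no gene. The 2 named transcripts were, by a fixed rule, the member with the highest mean CPM in xantho-leucophores and the one with the largest ratio of lowest xantho-leucophore to highest xanthophore CPM among members above 0 in every xanthophore library. Other members described by length were chosen after their values were seen. Alternatives were other scalings and filters, DESeq2 1.42.0, limma 3.58.1 on log2(TPM + 1) and log2(TPM + 0.1), the replicate number as a block, fragment length, other limits of the rule and leaving out each library.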

Additional observations from a re-analysis of the deposited data

Results flagged for a closer look

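Among the 14 groups of 5 values examined for a library far from its group, 3 held one, where chance gives about 0.7. Xantho-leucophore replicate 2 had 7735704 counts, far below the other 4 of its group, and a fragment length of 235.05 bases, far above them. In xantho-leucophore replicate 5 the median level of the 110 members was 72.2 CPM, above the 66.4 to 67.8 CPM of the other 4. Its summed level of 15869 CPM lay within theirs. Among single members, 5 of 110 in xantho-leucophores and 9 of 110 in xanthophores had a library as far from the others. About 5.5 would be expected in each group for values not chosen by a rule. In xanthophores, 3 of the 9 were low values of replicate 5. The members were chosen by their ranges and share libraries, so nothing is read from 5 or 9 beside 5.5. The 0.7 has the same limit where a group of values was a level of the members.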

How the results depend on the processing

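The count of 110 members became 252 at a ratio of at least 1.5, 39 at a ratio of at least 3 and 173 without xanthophore replicate 5 and xantho-leucophore replicate 2 together, a setting added after seeing the data. TMM-scaled CPM gave 116 members, 108 of them shared, and TPM gave 124, of which 96 were shared. Leaving out 1 library gave from 122 to 154. Leaving out libraries can only relax the ratio of the rule, so these rises and the 173 were largely built in. The ratio of summed levels, whose alternatives were all added after seeing the data, was 4.28 without the 10 members with most counts. It ran from 3.63 to 3.79 when a library was left out, with the same 110 members kept. The rule gave each of these a 2-fold margin in all 10 libraries, so nothing is read from that range. Over all tested transcripts, 1443 calls in either direction became 2693 with DESeq2, 798 with the replicate block and 503 with the fragment length covariate. They ran from 1082 to 1521 when a library was left out. Of the members, 95 were called higher, where 708 of the 28667 tested transcripts were. With DESeq2 it was 106 members, where 1430 tested transcripts were called higher, and with the replicate block 78, where 385 were. With the fragment length covariate it was 63, where 310 were. On log2(TPM + 1) all 110 members were called, where 739 tested transcripts were, and on log2(TPM + 0.1) 102, where 678 were. When a library was left out, 89 to 100 members and 542 to 732 tested transcripts were called higher. The rule used the same contrast, so nothing is read from these counts. The cause of these changes was not tested. Both named transcripts kept their call in the 18 other settings of the test. They were chosen on the same contrast, so nothing is read from this. The median log2 fold change over all tested transcripts was 0.17 with the fragment length covariate, -0.15 on log2(TPM + 1), -0.27 on log2(TPM + 0.1), -0.2 with the replicate block and -0.22 without the filter.

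Same-numbered libraries did not deviate together: the correlations of their deviations ran from -0.06 to 0.02, and across numbers they ran from -0.05 to 0.06. Sums per gene were not run. The smallest count behind a member was 20 in xantho-leucophore replicate 1 and 33 in replicate 2, the library of lowest depth.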
